A study of Homo sapiens with 12 samples.

Results

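The effect of a compound that the sample labels name only QTP was measured in MSTO-211H, an established human mesothelioma cell line, as its average over irradiated and unirradiated cells. The 6 QTP libraries (Rx 1 to 3 and Combo 1 to 3) were set against the 6 vehicle libraries (Con 1 to 3 and IR 1 to 3), which together are all 12 libraries of the series. All cells were kept in suspension in RPMI with the supplement SM1, EGF, bFGF, heparin and antibiotics, and the submitters describe them as mesothelioma-initiating. Con received vehicle and sham irradiation, IR vehicle and 4 Gy, Rx 10 µM QTP and sham irradiation, and Combo 10 µM QTP and 4 Gy. Radiation was given the day after the compound, and RNA was taken 48 h after radiation. Rx was read as QTP without radiation by elimination, since the other 3 names account for the other 3 arms of the design. The series title speaks of dopamine receptor inhibition, and the question here is which RNAs differ with QTP whether or not the cells were irradiated. All groups come from 1 cell line, and the labels do not state whether the 3 libraries of a group are separate cultures. Each p-value is therefore set against the spread among libraries only, and that spread may be technical.

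The measure is FPKM, which divides a gene's reads by its length and by a factor for the library. A difference is always one of log2(FPKM + 1), QTP minus vehicle. The QTP average of a gene is the mean of 2 differences that share no library, Rx minus Con in the sham arm and Combo minus IR in the 4 Gy arm, so a radiation effect common to vehicle and QTP cells is not part of it. Of 58735 genes listed, 13038 had a mean of at least 1 FPKM and were tested, and 10751 of these are protein-coding, the genes described here. Recovered reads per library were 13188257 to 16269195 in the vehicle libraries and 14925895 to 18630958 in the QTP libraries, so the QTP libraries were the deeper ones on average. Mitochondrially encoded genes took 8.15 ± 1.51% of the reads with vehicle and 8.89 ± 0.567% with QTP (SD, n = 6). Of 16 mesothelial and keratin markers 6 passed the filter and 4 were under 0.1 FPKM. KRT8 passed it at 448 to 589 FPKM in the 6 vehicle libraries and 305 to 526 in the 6 QTP libraries. MSLN, the mesothelial surface protein mesothelin, lay at 29.2 to 55.5 FPKM in the 6 vehicle libraries and 24.4 to 53.7 in the 6 QTP libraries. All 10 immune markers were below the filter, 9 of them under 0.1 FPKM, as were 5 of 6 endothelial markers. Of 7 fibroblast markers, by contrast, 5 passed the filter, with a median of 2.49 FPKM, and 2 were under 0.1 FPKM. Of 20 stem and tumour-initiating cell genes 10 passed the filter and 7 were under 0.1 FPKM.

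Cells hold their sterol level by a feedback in the endoplasmic reticulum. When sterols are low, the transcription factors SREBP-1 and SREBP-2, made by SREBF1 and SREBF2, are escorted by SCAP to the Golgi, cut there and sent to the nucleus, where they raise the genes of cholesterol and fatty acid synthesis and of the uptake of LDL. INSIG proteins hold SCAP back when sterols are plentiful. SREBPs bind weakly alone and act beside other factors, among them NF-Y, which binds the CCAAT box. Raised expression of these genes has been described in cultured cells treated with several antipsychotic drugs.

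Promoters are shown for 9 of the genes described below as higher with QTP. Only genes with a CCAAT box were kept, so the letters they share follow from that choice, and these 9 do not stand for the others. SREBF2 was added because it holds a sterol regulatory element. RefSeq windows (GRCh38.p14, the same assembly as hg38) cover the 250 bases before each annotated start. For each gene the stretch around the CCAAT box nearest to the start is printed in the direction of transcription, with the box in capitals (ATTGG where it lies on the other strand); for SREBF2 the capitals are instead a sterol regulatory element.
DHCR7, chr11:71448407-71448471, minus strand: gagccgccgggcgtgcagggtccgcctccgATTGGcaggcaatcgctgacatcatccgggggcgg
SC5D, chr11:121292685-121292749, plus strand: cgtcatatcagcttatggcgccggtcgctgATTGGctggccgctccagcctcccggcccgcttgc
ERG28, chr14:75660877-75660940, minus strand: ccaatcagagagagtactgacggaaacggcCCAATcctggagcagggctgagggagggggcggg
HMGCS1, chr5:43313478-43313542, minus strand: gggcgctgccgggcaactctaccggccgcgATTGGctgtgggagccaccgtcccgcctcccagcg
FDPS, chr1:155308785-155308849, plus strand: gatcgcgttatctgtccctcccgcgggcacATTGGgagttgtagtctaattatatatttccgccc
IDI1, chr10:1048939-1049003, minus strand: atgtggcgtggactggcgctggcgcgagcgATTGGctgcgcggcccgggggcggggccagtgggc
STARD4, chr5:111512631-111512695, minus strand: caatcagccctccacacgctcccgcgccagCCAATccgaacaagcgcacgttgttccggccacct
IDH1, chr2:208255144-208255208, minus strand: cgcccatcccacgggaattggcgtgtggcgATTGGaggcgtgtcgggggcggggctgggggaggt
RDH11, chr14:67695765-67695816, minus strand: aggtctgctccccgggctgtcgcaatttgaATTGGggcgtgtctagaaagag
SREBF2, chr22:41832942-41833010, plus strand: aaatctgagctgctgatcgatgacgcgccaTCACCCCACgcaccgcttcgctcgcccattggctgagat

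The box ended 44 bases before the start in DHCR7, 52 in SC5D, 30 in ERG28, 96 in HMGCS1, 47 in FDPS, 83 in IDI1, 126 in STARD4, 103 in IDH1 and 18 in RDH11. These RefSeq starts lay inside the gene as the deposited table bounds it for all 10 genes printed, by 11003 bases in IDH1, 4475 in DHCR7 and 26 to 318 in the other 8. For a gene with several starts, the first listed window with a box is shown. CCAAT on either strand was present in 16 of 23 windows of mevalonate and sterol enzymes (69.6%, 14 of the 16 genes with a window, of 21) and in 18 of 35 windows of the 27 genes described below as higher with QTP (51.4%, 15 of 23 genes), against 32.0% of all 35116 windows and 32.7% of those of tested protein-coding genes. It was as frequent among the mitotic genes, which had lower values with QTP (21 of 28 windows, 75.0%), so the letters are not particular to genes that were higher. The element TCACNCCAC was in 0 of the 35 windows and in 0.883% of all windows. At so low a share, 0 of 35 cannot show that the element is rarer in these genes, of which 23 of 27 had a window. SREBF2 held the element as TCACCCCAC, its last base 125 before the start. FADS1, LPIN1 and PRXL2A had no CCAAT in these 250 bases, and for GAMT no window was matched. These are matches of letters, not measured binding.

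Averaged over both arms, several genes of sterol and fatty acid synthesis and of sterol transport rose with QTP. By limma over all 13038 genes, 11 genes rose (0.0844% of those tested) and 1 fell (0.00767%) at an adjusted p under 0.05. In the order of their p they were IDH1, STARD4, FADS1, LPIN1, MIR635, HSD17B7P2, RDH11, GAMT (the 1 that fell), ERG28, DHCR7, PRXL2A and SC5D, and all had the same adjusted p of 0.0493. Limma fitted to the 10751 protein-coding genes alone gave 27 higher (0.251%) and 3 lower (0.0279%), which include all 10 protein-coding genes of the 12. Over all tested genes differences were small, with a median absolute QTP average of 0.0724, and 147 genes (1.13%) exceeded 0.5 in either direction. The 11 genes that rose lay at 0.42 (SC5D) to 0.93 (DHCR7), and GAMT at -0.34. The standard error of a gene's QTP average had a median of 0.0754.

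**Figure D1:**
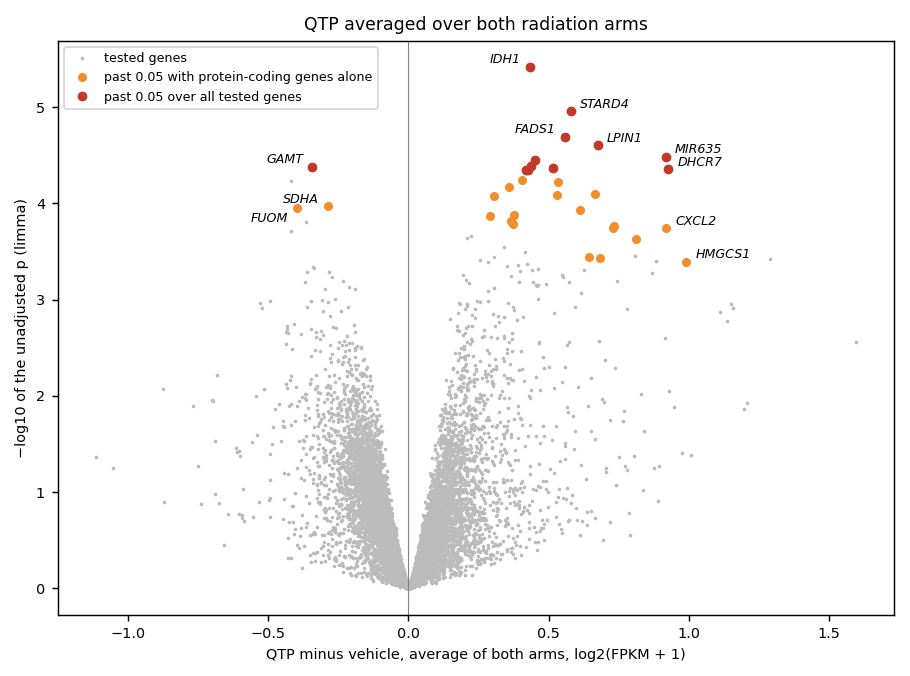
Each point is 1 of 13038 tested genes, with the QTP average on log2(FPKM + 1) on the x axis and −log10 of limma's unadjusted p on the y axis. Red marks the 12 genes past an adjusted p of 0.05 over all genes and orange the other 20 past it when protein-coding genes are fitted alone; most of the coloured points lie to the right of 0.

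The calls rest on a narrow margin. Over all genes limma called 0 genes when Con 1, Con 2, Con 3, IR 2, IR 3, Rx 3 or Combo 3 was left out, against 9 without IR 1, 18 without Rx 1, 1 without Rx 2, 2 without Combo 1 and 1 without Combo 2 (853 to 2447 genes at an unadjusted p under 0.05). With protein-coding genes alone it called 0 without Con 3, IR 2, IR 3 or Combo 3, 1 without Combo 2, 6 without Rx 3, 8 without Con 1 or Con 2, and 20 to 41 higher and 2 to 13 lower without each of the others. All 30 genes of the protein-coding fit kept their direction each time. Rescaling to TPM also left 0 calls in both fits, as did leaving out IR 3 and Combo 3 together, which lay at opposite ends of the first principal component (1378 and 764 genes at an unadjusted p under 0.05 over all genes). Scaling by the median of ratios and a fit without the variance trend left 0 calls over all genes, with 1500 and 1425 at such a p.

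Among the late sterol enzymes, DHCR7, the reductase of the last step to cholesterol (chromosome 11, 71428193 to 71452868, hg38), was measured at 38.1, 37.5 and 27.5 FPKM in Con, 31.7, 26.4 and 24.1 in IR, 47.0, 79.4 and 52.3 in Rx and 50.3, 57.9 and 72.4 in Combo. Its QTP average was 0.93 (SE 0.14, 95% interval 0.61 to 1.24), the largest of the 10 protein-coding calls. Every QTP library lay above every vehicle library, and Rx 2 and Combo 3 were the highest. SC5D, the desaturase that acts just before DHCR7 (chromosome 11, 121292453 to 121308694), was at 6.58, 5.63 and 5.82 FPKM in Con, 5.48, 5.29 and 5.55 in IR, 7.03, 8.17 and 7.78 in Rx and 7.51, 7.88 and 9.70 in Combo. The average difference was 0.42 (SE 0.0651). ERG28, a membrane scaffold of the enzymes that strip methyl groups from sterols (chromosome 14, 75649791 to 75661189), was at 26.5, 27.9 and 23.7 FPKM in Con, 25.6, 25.9 and 29.3 in IR, 36.4, 48.5 and 35.8 in Rx and 35.4, 35.5 and 39.3 in Combo, with a QTP average of 0.52 (SE 0.0798). For both genes the vehicle and QTP libraries did not overlap, and Rx 2 and Combo 3 again were the highest of their groups. ERG28 overlaps TTLL5 on the other strand and DHCR7 an antisense gene, and the use of strand in counting is not given in the sources used here, so reads of such partners cannot be told apart.

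Transport and redox genes of the same direction followed. STARD4, a carrier of cholesterol between membranes (chromosome 5, 111496033 to 111512590), was at 10.8, 10.1 and 8.49 FPKM in Con, 11.2, 9.87 and 9.20 in IR, 13.8, 14.9 and 13.5 in Rx and 14.2, 17.4 and 18.5 in Combo. This gave a QTP average of 0.58 (SE 0.0773). RDH11, a short-chain dehydrogenase of the endoplasmic reticulum that reduces retinal (chromosome 14, 67676801 to 67695814), was at 13.1, 13.6 and 12.9 FPKM in Con, 12.7, 13.6 and 14.7 in IR, 16.2, 20.9 and 17.5 in Rx and 17.2, 19.7 and 20.3 in Combo, giving 0.44 (SE 0.0672). The lowest QTP library of each gene still exceeded its highest vehicle library, 13.5 against 11.2 FPKM for STARD4 and 16.2 against 14.7 for RDH11. IDH1, the cytosolic isocitrate dehydrogenase that supplies NADPH (chromosome 2, 208236227 to 208266074), had the smallest p of all genes. It was at 18.8, 20.9 and 20.0 FPKM in Con, 17.6, 16.9 and 17.5 in IR, 24.2, 26.1 and 26.6 in Rx and 25.6, 22.9 and 27.5 in Combo, which gave 0.43 (SE 0.0518). PRXL2A, a peroxiredoxin-like protein (chromosome 10, 80407829 to 80437115), was the lowest expressed of these, at 3.20, 2.75 and 2.90 FPKM in Con, 2.86, 2.91 and 3.00 in IR, 3.65, 5.01 and 4.21 in Rx and 4.20, 4.10 and 4.68 in Combo, with 0.43 (SE 0.0663) from 251 to 595 reads per library.

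Fatty acid and glycerolipid enzymes gave the other protein-coding rises. FADS1, a desaturase of polyunsaturated fatty acids (chromosome 11, 61799625 to 61829318), was at 12.6, 13.2 and 12.5 FPKM in Con, 11.9, 11.7 and 10.6 in IR, 14.9, 21.0 and 17.2 in Rx and 16.6, 19.7 and 20.7 in Combo. QTP raised it by 0.56 on average (SE 0.0794). LPIN1, the phosphatase that makes diacylglycerol for lipid synthesis (chromosome 2, 11677595 to 11827409), was at 12.6, 14.4 and 12.6 FPKM in Con, 11.96, 11.2 and 10.0 in IR, 15.5, 23.2 and 20.4 in Rx and 17.3, 21.0 and 23.1 in Combo. Its rise averaged 0.68 (SE 0.10). In both genes the IR libraries lay below the Con libraries, and the Rx and Combo libraries lay above both. FADS1 overlaps FADS2 on the other strand, which had a QTP average of 0.78 (SE 0.18, adjusted p = 0.157 by limma), so their reads may be shared.

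GAMT, which makes creatine in the last step of its synthesis (chromosome 19, 1397026 to 1401570), was the only gene that fell. Its libraries were at 12.9, 14.1 and 13.6 FPKM in Con, 17.1, 17.3 and 16.9 in IR, 10.7, 13.2 and 11.2 in Rx and 11.8, 12.4 and 11.6 in Combo, with a QTP average of -0.34 (SE 0.0528, 95% interval -0.46 to -0.23). Rx overlapped Con, since Rx 2 lay within the Con range, whereas the Combo libraries lay well below the IR libraries. The difference was -0.20 in the sham arm and -0.49 in the 4 Gy arm, where the vehicle cells had the higher level; the interaction was -0.29 (95% interval -0.52 to -0.06) and did not pass limma's adjustment over all genes.

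The 2 calls that are not protein-coding are each related to a protein-coding gene of the same direction, HSD17B7P2 by sequence and MIR635 by position. HSD17B7P2, a pseudogene copy of the sterol reductase gene HSD17B7, ranged over 1.51 to 2.33 FPKM in the 6 vehicle libraries and 2.67 to 3.51 in the 6 QTP libraries, a QTP average of 0.45 (SE 0.0681), and HSD17B7 itself over 3.39 to 5.01 FPKM in the 6 vehicle libraries and 4.91 to 8.94 in the 6 QTP libraries, an average of 0.57 (SE 0.12; limma adjusted p = 0.125). The copies can share reads. By position HSD17B7P2 overlaps another protein-coding gene on the same strand, AL117339.5, whose mean of 0.753 FPKM was below the filter. MIR635 is a 98-base miRNA gene inside WIPI1 on the same strand, with 5 to 23 reads per library. Its QTP average was 0.92 (SE 0.14), and that of WIPI1, an autophagy gene, was 0.34 (SE 0.0932, adjusted p = 0.247 by limma). Reads of the host transcript and of the miRNA gene cannot be told apart here.

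**Figure D2:**
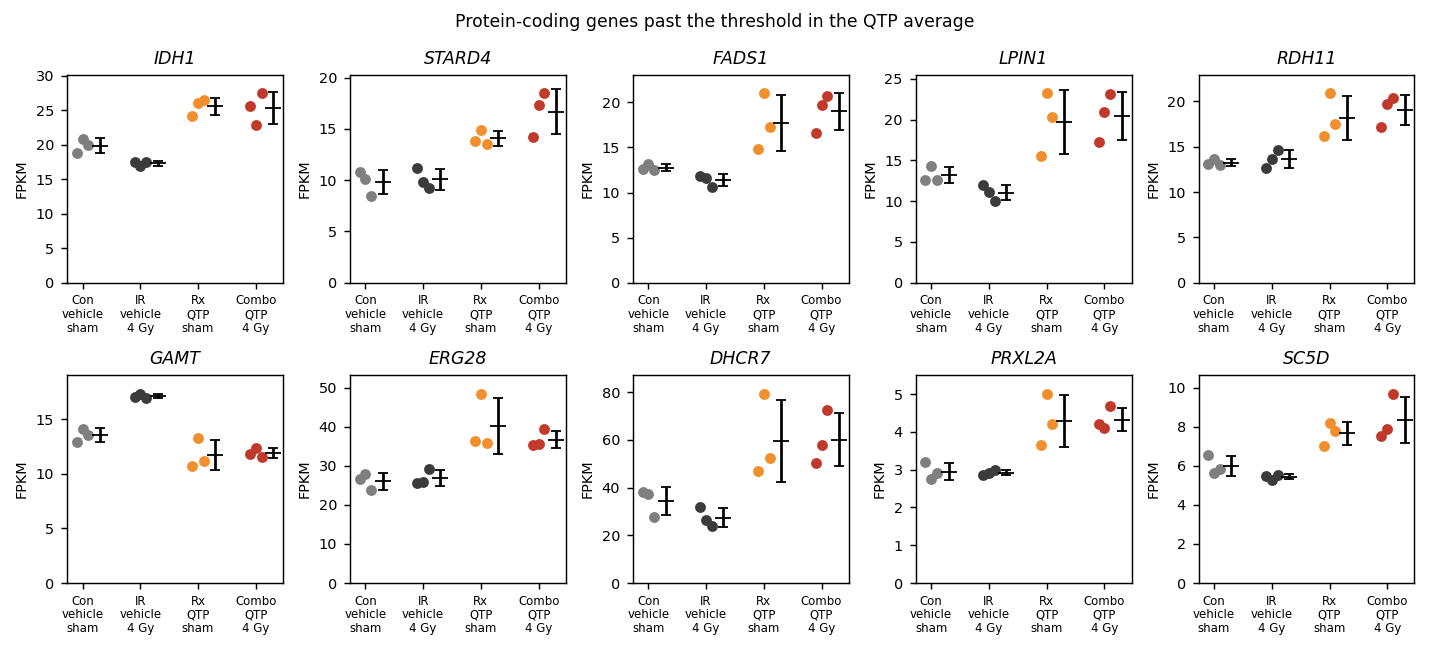
FPKM of the 10 protein-coding genes past the threshold, 1 point per library in the order of replicate number, with the group mean and SD beside the points (n = 3); each axis starts at 0. The 6 QTP libraries lie above the 6 vehicle libraries in 9 panels, and in the GAMT panel Rx 2 lies among the Con libraries while Combo lies below IR.

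To give a p that borrows no spread from other genes, the mean within-arm difference was compared over all 400 arrangements of libraries within arms by an exact two-sided permutation test. The smallest p this design can give is 0.005, and 11 of the 12 called genes had it; GAMT had an exact p of 0.010. The 12 genes were picked on the same values. A gene whose groups do not overlap within either arm, with the same direction in both, always reaches 0.005. These p-values therefore add no separate support. Over all tested genes, the 6 QTP libraries lay above all 6 vehicle libraries in 81 (0.621%) and below them in 30 (0.230%). Demanding only that the groups did not overlap within each arm gave 139 genes higher in both arms (1.07%) and 65 lower in both (0.499%), against 38 higher in Rx and lower in Combo (0.291%) and 19 the other way (0.146%).

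The fit of protein-coding genes added 20 genes, of which 10 are genes of lipid synthesis or uptake. Of these, HMGCS1, the HMG-CoA synthase of the mevalonate pathway (chromosome 5, 43289395 to 43313512), had the largest difference. It was at 21.6, 25.6 and 16.2 FPKM in Con, 20.7, 20.0 and 15.7 in IR, 25.2, 57.2 and 33.8 in Rx and 31.8, 49.1 and 54.5 in Combo, a QTP average of 0.99 (SE 0.20; adjusted p = 0.0497 with protein-coding genes alone and 0.118 over all genes, by limma). Rx 1, at 25.2 FPKM, lay below Con 2, so the groups overlapped in the sham arm. ACAT2, the cytosolic thiolase that feeds HMGCS1, ranged over 4.89 to 7.15 FPKM in the 6 vehicle libraries and 8.56 to 15.2 in the 6 QTP libraries, an average of 0.73 (SE 0.13). Further down the pathway, IDI1, the isopentenyl diphosphate isomerase, ranged over 28.2 to 38.0 FPKM in the 6 vehicle libraries and 39.6 to 68.7 in the 6 QTP libraries (0.68, SE 0.14), and FDPS, the farnesyl diphosphate synthase, over 16.0 to 25.04 FPKM in the 6 vehicle libraries and 26.7 to 47.1 in the 6 QTP libraries (0.73, SE 0.13). Squalene epoxidase, SQLE, was at 26.7, 29.9 and 23.5 FPKM in Con, 23.1, 25.2 and 22.6 in IR, 31.7, 47.4 and 37.8 in Rx and 32.4, 43.5 and 42.8 in Combo, an average of 0.61 (SE 0.11). The sterol methyl oxidase MSMO1 was at 57.7, 63.5 and 43.2 FPKM in Con, 52.5, 57.5 and 54.4 in IR, 72.7, 134 and 80.4 in Rx and 82.5, 105 and 118 in Combo, an average of 0.81 (SE 0.15).

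Genes of lipoprotein uptake and of the supply of acetyl groups and phospholipids were also in that fit. LRP8, a lipoprotein receptor, ranged over 3.25 to 4.50 FPKM in the 6 vehicle libraries and 4.39 to 5.92 in the 6 QTP libraries, an average of 0.37 (SE 0.0673). ACLY, which makes cytosolic acetyl-CoA from citrate, was at 105, 111 and 103 FPKM in Con, 108, 91.0 and 85.4 in IR, 125, 163 and 139 in Rx and 136, 143 and 170.1 in Combo, an average of 0.53 (SE 0.0853; adjusted p = 0.0224 with protein-coding genes alone and 0.0517 over all genes, by limma). PCYT2, an enzyme of phosphatidylethanolamine synthesis, went from 5.23, 6.16 and 4.83 FPKM in Con to 6.25, 10.1 and 7.72 in Rx and from 5.08, 4.73 and 3.70 in IR to 7.63, 9.65 and 9.49 in Combo, an average of 0.66 (SE 0.11).

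The other genes of that fit have diverse roles. CXCL2, a chemokine of neutrophils, was at 3.03, 2.35 and 3.62 FPKM in Con, 3.64, 3.76 and 3.58 in IR, 5.82, 10.9 and 6.16 in Rx and 7.13, 4.76 and 9.59 in Combo, and its average of 0.92 (SE 0.17) was the second largest after HMGCS1 of the 20. SESN2, a sestrin that senses amino acid stress, ranged over 16.2 to 19.7 FPKM in the 6 vehicle libraries and 20.8 to 28.7 in the 6 QTP libraries (0.36), and GTPBP2, a GTP-binding protein tied to the rescue of stalled ribosomes, over 9.41 to 11.1 FPKM in the 6 vehicle libraries and 12.2 to 15.7 in the 6 QTP libraries (0.36). OSTM1, the partner of a lysosomal chloride transporter, had an average of 0.29, MXD1, an antagonist of MYC at its DNA sites, 0.38, and FOXF1, a forkhead transcription factor of mesoderm, 0.41. The membrane proteins TMEM154 and TMEM135 had 0.53 and 0.31. Beside GAMT, 2 genes were lower in this fit. SDHA, the catalytic subunit of succinate dehydrogenase, was at 24.1, 27.9 and 26.4 FPKM in Con, 25.7, 27.3 and 27.4 in IR, 22.0, 23.2 and 22.6 in Rx and 21.7, 20.7 and 19.0 in Combo (-0.29, SE 0.0493), and FUOM, the fucose mutarotase, at 11.0, 12.2 and 12.9 FPKM in Con, 12.1, 11.3 and 13.2 in IR, 10.1, 9.57 and 9.91 in Rx and 8.99, 8.58 and 6.80 in Combo (-0.40, SE 0.0684). SDHA has near-identical pseudogene copies, which can share its reads.

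Ordered by p, the next protein-coding genes that were lower without overlap in both arms did not pass either fit and are given as values. MRPL1, a mitochondrial ribosomal protein, had a QTP average of -0.34, the mitochondrial protease PARL -0.36, the oxidised-nucleotide hydrolase NUDT1 -0.35, the ribokinase RBKS -0.30 and the helicase DDX28 -0.31. FHL2, a LIM-domain cofactor, had -0.28, FRMD6, a protein upstream of the Hippo kinases, -0.28, DEPDC1B -0.26, RBMX2 -0.23 and ARHGAP17 -0.19. PARL stood at 3.50, 3.64 and 3.56 FPKM in Con and 3.35, 3.19 and 3.13 in Rx, but at 3.32, 3.92 and 4.35 in IR and 2.68, 1.78 and 2.12 in Combo, so most of its average came from the 4 Gy arm. Limma's unadjusted p was under 0.05 for 572 protein-coding genes that were higher (5.32%) and 707 that were lower (6.58%), and for 679 (5.21%) and 804 (6.17%) of all tested genes.

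The lipid lists show how far the difference ran through each pathway. Of all tested genes 48.1% had a higher mean, 5.21% an unadjusted p under 0.05 upward and 6.17% one downward. Counts of these kinds in each list below stand against those shares. Of 9 mevalonate enzymes, all tested, 8 had a higher mean with QTP and 8 had an unadjusted p under 0.05 in that direction, where 5.21% of all tested genes did. The median QTP average was 0.68, against -0.00482 over all tested genes, and it was 0.63 in the sham arm and 0.75 in the 4 Gy arm. The exception was PMVK, the phosphomevalonate kinase, with such a p downward, at -0.02 and -0.35 in the 2 arms. MVD, the decarboxylase, had 0.87 (SE 0.18), and GGPS1, which leads off the sterol branch to geranylgeranyl groups, had 0.21 (SE 0.0476).

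All 12 sterol enzymes from squalene to cholesterol had a higher mean in both arms and an unadjusted p under 0.05, by a median of 0.43 (0.44 in the sham arm and 0.50 in the 4 Gy arm), and 7 of them did not overlap between vehicle and QTP in either arm, where 1.07% of all tested genes did so. Beyond DHCR7, SC5D, SQLE and MSMO1, the cyclase LSS had an average of 0.63 (SE 0.13), the squalene synthase FDFT1 0.42 (SE 0.0860) and the demethylase CYP51A1 0.37 (SE 0.10). None of these 3 passed limma's adjustment over all genes.

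Differences within the SREBP control list were uneven in size. INSIG1, the sterol-regulated anchor of SCAP, had the largest average of the list at 1.14 (SE 0.28; adjusted p = 0.180 by limma over all genes). It was at 31.9, 42.3 and 21.2 FPKM in Con, 28.4, 33.6 and 23.3 in IR, 39.8, 122 and 50.7 in Rx and 45.7, 84.2 and 84.3 in Combo, so Rx 2 was more than the other Rx libraries combined and Rx 1 lay within the Con range. SREBF2 had 0.34 (SE 0.10) and SREBF1 0.27 (SE 0.0912). Of 11 tested genes of 12 listed, 10 had a higher mean and 5 an unadjusted p under 0.05, with a median of 0.12. That median was 0.23 without Con 1, 0.19 without IR 1, 0.19 without Combo 2 and 0.31 over members of at least 5 FPKM. In the list of lysosomal cholesterol export and LXR efflux, 9 of 11 had a higher mean and 3 such a p (median 0.15). NPC1, which moves cholesterol out of lysosomes, ranged over 6.21 to 10.2 FPKM in the 6 vehicle libraries and 8.81 to 16.5 in the 6 QTP libraries (0.57, SE 0.15). ABCA1, the LXR-driven efflux pump, was at 1.98, 0.658 and 0.837 FPKM in Con, 2.08, 0.886 and 0.713 in IR, 1.84, 0.629 and 0.702 in Rx and 2.42, 1.01 and 2.06 in Combo, and its average of 0.15 (95% interval -0.34 to 0.63) was within the spread between libraries.

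Of 20 tested genes of fatty acid synthesis and desaturation, of 21 listed, 18 had a higher mean and 12 an unadjusted p under 0.05 in that direction, with a median of 0.22 (0.16 in the sham arm and 0.33 in the 4 Gy arm). SCD, the stearoyl-CoA desaturase, had the largest average of the protein-coding genes, 1.15 (SE 0.26; adjusted p = 0.153 by limma over all genes), from 160.3, 136 and 73.1 FPKM in Con, 140.1, 119 and 84.2 in IR, 152, 375 and 196 in Rx and 203, 330.2 and 368 in Combo. Its vehicle libraries also differed widely, from 73.1 to 160.3 FPKM, and Rx 1 lay within that range. FASN, the fatty acid synthase, had 0.60 (SE 0.19), the acetyl-CoA synthetase ACSS2 0.65 (SE 0.20) and the fatty acyl-CoA synthetase ACSL3 0.55 (SE 0.11). ACSL4, of the same enzyme family, varied little between libraries, at 21.2 to 22.3 FPKM in the 6 vehicle libraries and 23.0 to 27.7 in the 6 QTP libraries (0.22, SE 0.0418; limma adjusted p = 0.0885).

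**Figure D3:**
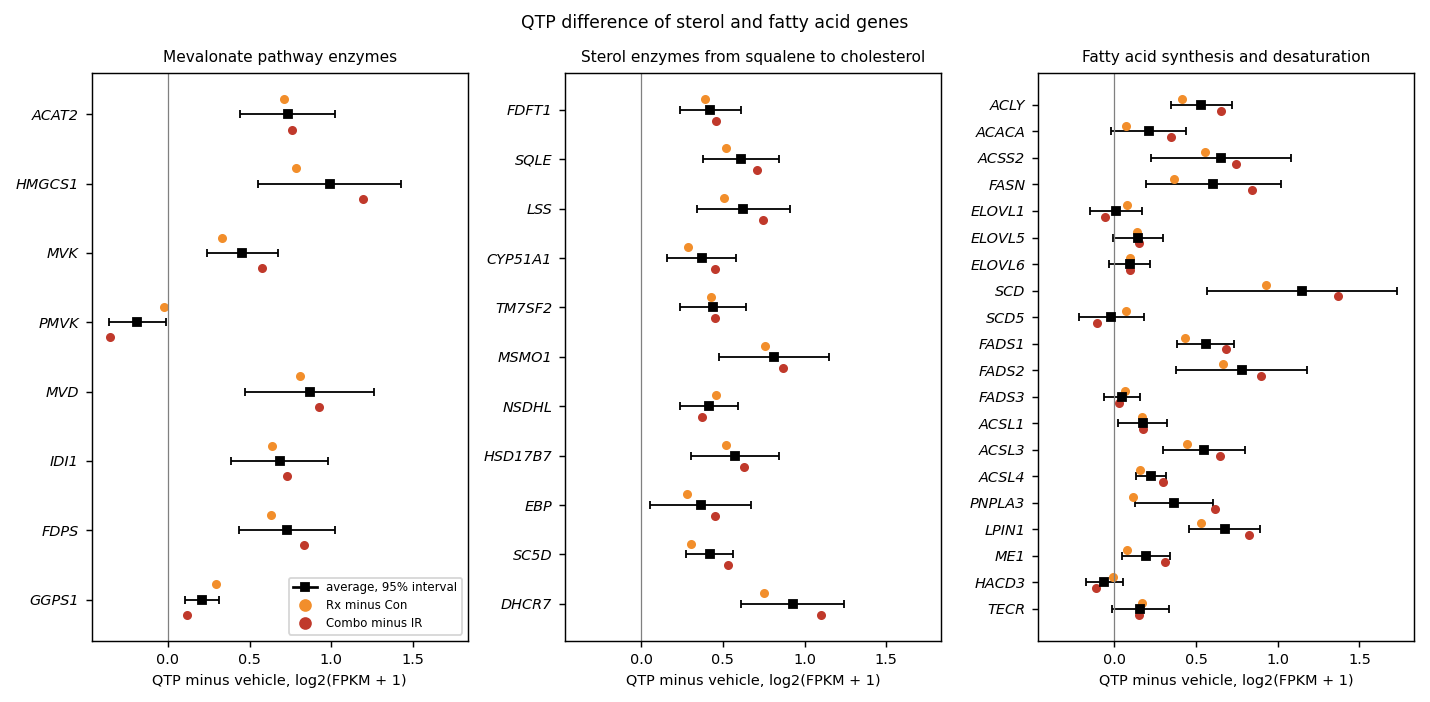
Each row is 1 of the listed genes reported here, with the QTP average and its 95% interval (black), Rx minus Con (orange) and Combo minus IR (red) on log2(FPKM + 1). Nearly all points lie to the right of 0 in the mevalonate and sterol panels, PMVK being the exception, and SCD, HMGCS1 and DHCR7 lie farthest to the right in their panels.

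Per library, the lipid lists separated QTP from vehicle but not evenly. The median over the mevalonate list, set against the vehicle mean of the same arm, was 0.27, 1.11 and 0.48 in Rx 1, 2 and 3 and 0.47, 0.83 and 0.92 in Combo 1, 2 and 3, with the vehicle libraries at -0.21 to 0.22. For the sterol enzymes these were 0.18, 0.78 and 0.33 in Rx and 0.38, 0.54 and 0.68 in Combo, against -0.15 to 0.16. Rx 2 was the highest library of both lists and Rx 1 the lowest QTP library of both. For fatty acid genes the QTP libraries were at 0.08 to 0.40 and the vehicle libraries at -0.10 to 0.09, so Rx 1 lay within the vehicle range. Why the Rx libraries differ was not tested.

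**Figure D4:**
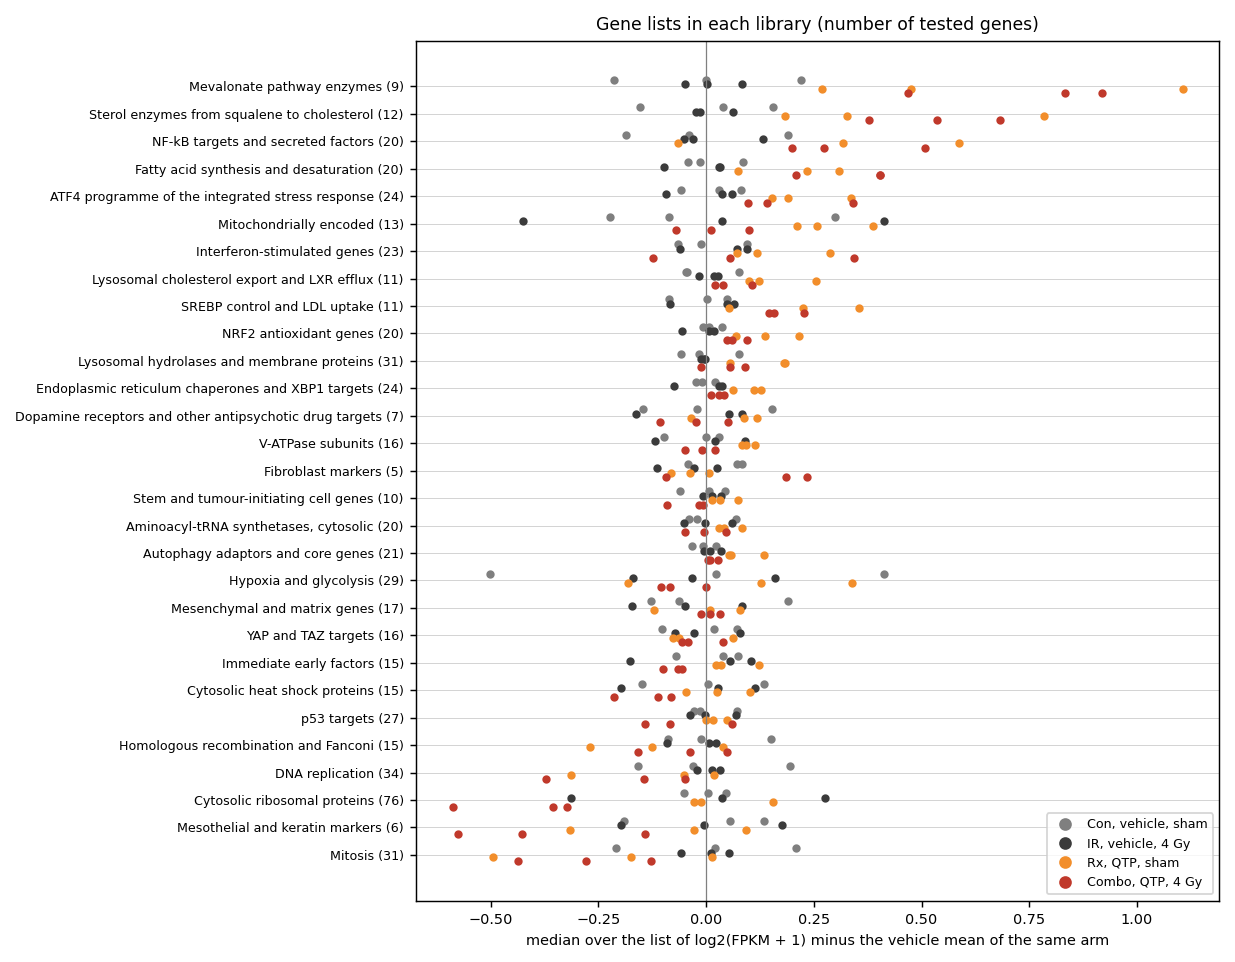
Each point is the median over a gene list of log2(FPKM + 1) minus the vehicle mean of the same arm, for 1 library, with the number of tested genes in brackets. Mevalonate and sterol enzymes lie to the right for all 6 QTP libraries, mitosis and replication lie to the left for most of them, and the ribosomal protein list lies far to the left for Combo but not for Rx.

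Genes of lysosomes differed little. Of 31 tested hydrolases and membrane proteins, 26 had a higher mean with QTP, 9 with an unadjusted p under 0.05 and 1 with such a p in the other direction, and the median was 0.08. NEU1, the lysosomal sialidase, ranged over 5.31 to 8.10 FPKM in the 6 vehicle libraries and 7.94 to 10.1 in the 6 QTP libraries (0.39, SE 0.0794), MCOLN1, a lysosomal calcium channel, had 0.20 and GLA, the alpha-galactosidase, 0.18, while LAPTM4A, a lysosomal membrane protein, had -0.15. The proton pump list had a median of 0.04 over 16 genes and the autophagy list one of 0.02 over 21. SQSTM1, an autophagy adaptor, was at 61.5, 50.0 and 60.0 FPKM in Con, 68.5, 61.1 and 56.9 in IR, 68.1, 79.8 and 71.5 in Rx and 79.2, 74.1 and 91.1 in Combo, an average of 0.37 (SE 0.0772; adjusted p = 0.122 by limma over all genes).

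Amino acid and stress genes formed the next group. The ATF4 programme answers amino acid shortage and endoplasmic reticulum stress. Of its 24 tested genes 22 had a higher mean, where 48.1% of all tested genes did. An unadjusted p under 0.05 was reached by 11 upward and 0 downward, against 5.21% and 6.17% of all tested genes. The list's median was 0.20 (0.19 and 0.19 in the sham and 4 Gy arms). SLC7A5, an amino acid transporter, ranged over 15.9 to 20.0 FPKM in the 6 vehicle libraries and 21.4 to 26.0 in the 6 QTP libraries (0.30, SE 0.0603). TRIB3, a pseudokinase induced by ATF4, ranged over 13.3 to 18.7 FPKM in the 6 vehicle libraries and 20.9 to 28.2 in the 6 QTP libraries (0.49, SE 0.11). The cystine transporter SLC7A11 had 0.39, the serine synthesis enzyme PSAT1 0.34 and the stress factor DDIT3 0.35. Of 20 cytosolic aminoacyl-tRNA synthetases 6 had such a p upward and 1 downward, with a median of 0.03; CARS, for cysteine, had 0.20 and KARS, for lysine, -0.14. Chaperones of the endoplasmic reticulum and XBP1 targets had a median of 0.06 over 24 genes, 6 with an unadjusted p under 0.05 upward, and the stress factor XBP1 itself had 0.27 (SE 0.0677). None of the genes named for these 3 lists passed limma's adjustment in either fit, SESN2 above being the exception in the list of the ATF4 programme.

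Antioxidant genes driven by NRF2 had a median of 0.12, 16 of 20 with a higher mean and 8 with an unadjusted p under 0.05 upward. TXNRD1, thioredoxin reductase, ranged over 79.3 to 107 FPKM in the 6 vehicle libraries and 98.5 to 144 in the 6 QTP libraries (0.30, SE 0.0718). FTH1, the ferritin heavy chain, ranged over 105 to 131 FPKM in the 6 vehicle libraries and 122 to 188 in the 6 QTP libraries (0.37, SE 0.0938); FTH1 has many pseudogene copies that can share its reads. Of 20 tested NF-kB targets and secreted factors 19 had a higher mean and 10 such a p, with a median of 0.27. Besides CXCL2, the chemokine CXCL8 had 0.95 (SE 0.32) from 1.26, 0.684 and 0.895 FPKM in Con, 1.64, 0.599 and 1.51 in IR, 2.23, 7.92 and 0.824 in Rx and 2.53, 2.79 and 4.58 in Combo, with Rx 2 far above the other libraries and Rx 3 within the Con range. The list's median was 0.32, 0.59 and -0.06 in Rx 1, 2 and 3, so Rx 3 did not share the difference.

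Proliferation genes had lower values. All 31 tested mitosis genes had a lower mean with QTP, 20 of them with an unadjusted p under 0.05, where 6.17% of all tested genes did so downward, and the median was -0.26 (-0.22 in the sham arm and -0.32 in the 4 Gy arm). No member passed limma's adjustment in either fit. CCNB1, the cyclin of mitotic entry, was at 24.4, 27.0 and 19.2 FPKM in Con, 18.7, 19.9 and 18.9 in IR, 23.8, 17.9 and 13.5 in Rx and 15.5, 13.8 and 10.5 in Combo (-0.44, SE 0.13). TOP2A, the topoisomerase of dividing cells, was at 28.9, 33.1 and 23.4 FPKM in Con, 24.1, 24.7 and 19.8 in IR, 27.1, 23.2 and 17.0 in Rx and 20.2, 17.6 and 13.8 in Combo (-0.37, SE 0.13). MKI67, the proliferation marker Ki-67, had -0.41 in the sham arm and -0.07 in the 4 Gy arm, an average of -0.24 (95% interval -0.57 to 0.08). Of 34 replication genes 33 had a lower mean and 8 such a p (median -0.16); GINS2, of the replicative helicase, ranged over 2.03 to 3.35 FPKM in the 6 vehicle libraries and 0.929 to 2.37 in the 6 QTP libraries (-0.44, SE 0.11). By library the mitosis median was 0.01, -0.17 and -0.49 in Rx and -0.13, -0.28 and -0.44 in Combo, against -0.21 to 0.21 in the vehicle libraries, so 3 QTP libraries lay within the vehicle range.

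Targets of p53, the factor that halts the cycle after DNA damage, showed no common direction: 8 of 27 had a higher mean, 3 with an unadjusted p under 0.05, SESN2 among them, and 19 a lower one, 5 with such a p, and the median was -0.06. CDKN1A, which makes the cycle inhibitor p21, was at 135, 151 and 157 FPKM in Con, 182, 221 and 220.4 in IR, 157, 181 and 165 in Rx and 195, 242 and 194 in Combo, and its QTP average was 0.10 (95% interval -0.07 to 0.28). MDM2, the ubiquitin ligase of p53, had -0.02 in the sham arm and 0.01 in the 4 Gy arm, and the sign of its average changed with the scaling and with single libraries left out. TP53I3, a p53-induced oxidoreductase, had -0.41 (SE 0.11), and the growth factor relative GDF15 0.40 (SE 0.14).

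Among receptors that antipsychotic drugs bind, 7 of 29 listed genes passed the filter. DRD4 was the only dopamine receptor among them, at 3.36, 4.74 and 4.24 FPKM in Con, 3.42, 4.22 and 5.67 in IR, 4.45, 5.39 and 3.22 in Rx and 3.35, 4.55 and 3.61 in Combo, with an average of -0.05 (95% interval -0.33 to 0.23) whose sign changed when IR 3 or Rx 3 was left out. DRD1 and DRD2 had at most 2 reads in any library, and DRD3 and DRD5 had 0 in all. TMEM97, the sigma receptor that is also a sterol-regulated partner of NPC1, ranged over 14.9 to 21.3 FPKM in the 6 vehicle libraries and 18.9 to 35.4 in the 6 QTP libraries (0.44, SE 0.14, adjusted p = 0.305 by limma).

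The arms were compared gene by gene, since Rx minus Con and Combo minus IR share no library. Within the arms limma called 0 genes after adjustment (0% each), and at an unadjusted p under 0.05 it gave 425 in the sham arm (3.26%) and 2278 in the 4 Gy arm (17.5%). Across all 13038 genes the 2 differences had a Pearson correlation of 0.04 and the same sign in 50.3%. Across the 10751 protein-coding genes the correlation was 0.23 with the same sign in 51.5%, and across the 6744 of these with a mean of at least 5 FPKM it was 0.29 with the same sign in 50.2%. Across the 52 tested genes of the 4 lists of sterol and fatty acid genes (mevalonate, sterol, SREBP control, fatty acid) the correlation was 0.91 and 49 had the same sign (94.2%). These are correlations across genes, which are not independent replicates. The 4 lists were chosen with earlier results of these data known. They also hold genes called on the mean of these same 2 differences, so their agreement adds no separate support. The interaction, Combo minus IR less Rx minus Con, passed limma's adjustment for 0 genes and an unadjusted p under 0.05 for 995 (7.63%); voom on the recovered reads gave 0 and 1100. Without IR 1 it passed for 3 genes and without Rx 3 for 1. For single genes its interval stayed wide: 0.35 (-0.28 to 0.98) for DHCR7, 0.41 (-0.47 to 1.28) for HMGCS1 and 0.17 (-0.06 to 0.39) for IDH1, all of which include 0.

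**Figure D5:**
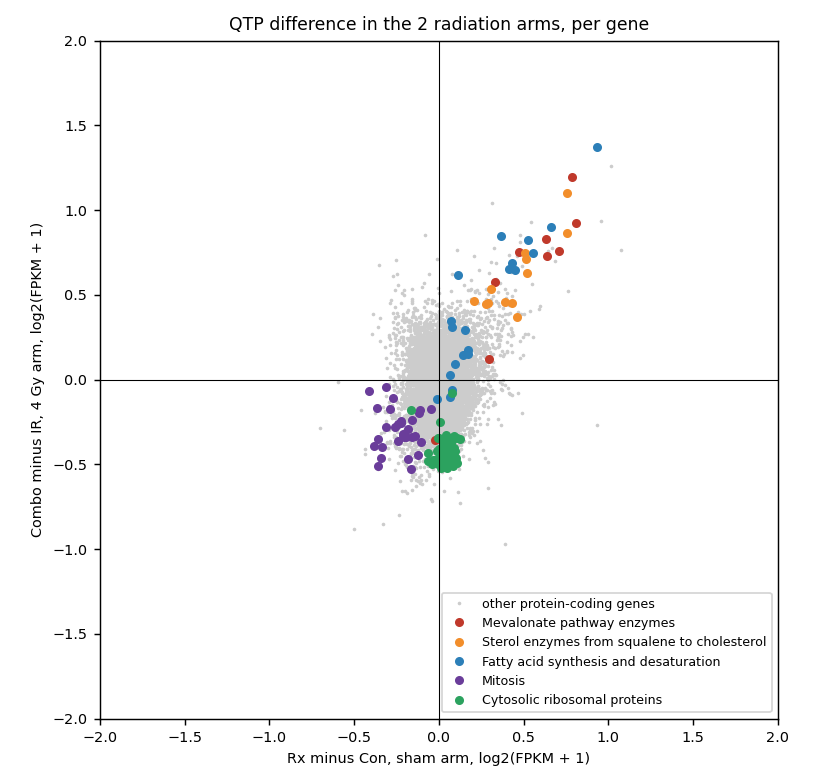
Each point is 1 protein-coding gene, with Rx minus Con on the x axis and Combo minus IR on the y axis, both on log2(FPKM + 1). Mevalonate, sterol and fatty acid genes run along the diagonal in the upper right, mitosis genes lie in the lower left, and ribosomal protein genes lie near 0 on the x axis and below 0 on the y axis.

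In some lists the average hides arms with different medians. The 76 cytosolic ribosomal protein genes had a median of 0.04 in the sham arm and -0.43 in the 4 Gy arm, an average of -0.19, with 14 genes at an unadjusted p under 0.05 downward; the average was -0.13 without IR 3. For 50 of the 76 the interaction had an unadjusted p under 0.05 toward a lower difference in the 4 Gy arm, where 5.31% of all tested genes did, and none passed limma's adjustment. Their IR libraries were themselves spread, at -0.31, 0.04 and 0.28 in IR 1, 2 and 3, and Combo lay at -0.32, -0.36 and -0.59. The 16 proton pump genes had 0.11 and -0.02, 3 of them with such an interaction p. The 13 mitochondrially encoded genes had 0.29 and 0.03, and 0 passed an unadjusted p of 0.05 for the average or for the interaction. Their IR libraries ran from -0.42 in IR 1 to 0.41 in IR 3. The 6 mesothelial and keratin markers had -0.06 and -0.41, with 0 members at an unadjusted p under 0.05 for the interaction. KRT8 and KRT18, which encode the partner keratins of simple epithelia, had averages of -0.31 (SE 0.11) and -0.31 (SE 0.13), and they can share reads. Whether a shared shift of the IR or Combo libraries takes part in these values was not tested.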

How the data were processed

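RNA sequencing of 12 libraries was analysed from 1 table of FPKM deposited by the authors for 58735 genes, with gene lengths and coordinates. Per the labels, RNA was extracted with Trizol and RNeasy, libraries were made with NEBNext Ultra and sequenced on a NovaSeq6000. Per the submitters' processing notes the build was hg38. How reads were aligned and counted, whether strand was used and how libraries were scaled to give the FPKM is not given in the sources used here. Every value above 0 was a whole number of reads (100%, tolerance 0.01), and these reads were recovered.

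Groups and replicate numbers came from the sample titles. By a chi-square of recovered reads, no replicate was a repeat of another. Genes averaging at least 1 FPKM were tested on log2(FPKM + 1), which understates differences of low genes. The model in limma 3.58.1 (R 4.3.3) held the 4 group means and a variance trend, with two-sided tests and Benjamini-Hochberg adjustment over all tested genes (threshold 0.05). The same fit on protein-coding genes alone is given beside it. Exact permutation tests used 400 arrangements of libraries within arms. Identifiers were tested, and 1566 symbols belong to more than 1 of them; 429 tested genes are under 200 bases. Promoter windows are from RefSeq on GRCh38.p14 (35116 windows, 27305 symbols).

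The comparison, its genes and the gene lists were chosen with earlier results of these data known. Genes were named as follows: all past the threshold; the lowest-p protein-coding genes without overlap in either arm; from each list up to 4 of lowest p and the member farthest against the list's median; and a fixed set that includes HMGCS1, INSIG1, SCD, CDKN1A, MDM2 and DRD1 to DRD5. The genes of the protein-coding fit and others named beside them were added after their values were seen. Some members of the lists and of the fixed set are counted but not reported here by name. Of 31 lists, those without a common direction are given under other observations. Alternatives were another pseudocount (0.1), a minimum of 5 FPKM or no minimum, 3 other library scalings (TPM, median of ratios, quantiles), an additive model, a fit without the variance trend, quality weights per library, a replicate block, voom on recovered reads, and each library left out, as well as IR 3 and Combo 3 together. A minimum gene length of 200 bases and all settings within the protein-coding fit were added after seeing the data.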

Additional observations from a re-analysis of the deposited data

How the results depend on the processing

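Over all genes, against 11 higher and 1 lower, limma gave 4 and 2 with no filter on low values (interaction 6 genes), 20 and 4 at a mean of at least 5 FPKM, 27 and 3 with protein-coding genes alone, 19 and 4 after quantile normalization, 11 and 0 in the additive model, 30 and 3 with voom, and 15 and 2 for genes of at least 200 bases. Rescaling to TPM, scaling by the median of ratios (smallest adjusted p 0.0522), no variance trend, and leaving out IR 3 and Combo 3 together each gave 0 and 0. Library quality weights gave 398 and 379, but their estimation did not converge and IR 2 had a weight of 17.4. Leaving out 1 library gave 0 to 17 higher and 0 to 4 lower, and 0 to 3 genes for the interaction. Protein-coding genes alone, at 27 and 3, gave 0 and 0 with TPM and without IR 3 and Combo 3, 45 and 15 with quality weights, and 0 to 41 higher and 0 to 13 lower with 1 library left out. All 30 genes kept their direction in every setting in which they were tested. The median of the SREBP control list was 0.308 at a mean of at least 5 FPKM and 0.103 to 0.231 with 1 library left out. MDM2 turned to 0.00303 with TPM, 0.00153 with the median of ratios, 0.0402 with quantiles, 0.110 with quality weights and 0.0219 without IR 3 and Combo 3, and lay at -0.0689 to 0.0953 with 1 library left out. DRD4 turned to 0.0443 without IR 3 and Combo 3 and lay at -0.12 to 0.0308 with 1 library left out. For 115 genes named, 2603 values under these settings kept direction and side of the threshold, 197 lost the threshold, 152 gained it and 12 changed sign. Only the 12 genes called over all genes could lose the threshold, so all 197 losses are theirs. Most of the 2603 values belong to genes that were not called in the main fit, so that count does not show stable calls. The causes of these changes were not tested. Where 1 library was left out, its group kept 2 and shared the spread of the others. A quasi-likelihood count test on the recovered reads was not run.

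The labels do not say that a replicate number marks a shared culture or day. Deviations of same-numbered libraries correlated at over 0.1 in 11 of 18 pairs (-0.207 to 0.354), among them all 3 pairs of Con with Rx (0.191 to 0.282) and of Con with IR (0.161 to 0.354) but 1 of 3 of IR with Combo. A library correlated best with its own number in 25 of 36 comparisons with another group, and 4 of 12 libraries did so in every other group. Each comparison was among the 3 libraries of that group, 1 of which had the same number. Since not every pair exceeded 0.1, the numbers were not taken as pairs in the main fit. That rule was a choice and does not show that libraries of the same number are unrelated. Whether libraries of any groups, Con and Rx among them, share a batch by number was not tested. With the replicate block limma gave 11 higher and 1 lower over all genes, 7 of the 12 being shared, and 61 and 20 with protein-coding genes alone, all 30 being shared.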

Other observations

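Interferon-stimulated genes, which cells express in defence against viruses, did not separate QTP from vehicle libraries as a list. Set against the vehicle mean of the same arm, their median was 0.29, 0.07 and 0.12 in Rx 1, 2 and 3 and 0.34, -0.12 and 0.06 in Combo 1, 2 and 3, against -0.06 to 0.09 in the vehicle libraries. Of 23 tested, 15 had a higher mean and 3 an unadjusted p under 0.05, none of them past limma's adjustment, and the median QTP average was 0.15 (0.06 without Combo 1 and 0.08 without Con 2, IR 2 or Rx 1). The signal transducer STAT2 had a QTP average of 0.23 (95% interval 0.08 to 0.39), IFIT3 0.35 (0.07 to 0.64) and IFIT1 0.34 (0.05 to 0.63). The IFIT1 libraries were at 1.51 to 2.73 FPKM with vehicle and 2.40 to 4.11 with QTP, so the groups overlapped slightly.

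Other lists had medians near 0 as averages of both arms, though in some of them the arms had opposite signs. The hypoxia and glycolysis list had 0.01 over 29 genes, mesenchymal and matrix genes 0.01 over 17, stem and tumour-initiating cell genes 0.03 over 10, and fibroblast markers 0.04 over 5. The stem cell list lay at -0.01 without IR 3 and Combo 3, and the fibroblast list at -0.09 for a mean of at least 5 FPKM. Heat shock proteins had -0.06 over 15, immediate early factors -0.03 over 15 and targets of YAP and TAZ, the effectors of Hippo signalling, -0.02 over 16; after quantile normalization these 3 medians lay just above 0, between 0.004 and 0.007. Homologous recombination and Fanconi genes, which repair double-strand breaks and crosslinks, had -0.09 over 15, with 0 members at an unadjusted p under 0.05. In the sham and 4 Gy arms the medians were 0.10 and -0.06 for hypoxia and glycolysis, with 27 and 11 of 29 higher. They were 0.04 and -0.10 for heat shock proteins, 0.07 and -0.13 for immediate early factors and -0.06 and 0.13 for fibroblast markers. Vehicle libraries of the hypoxia list were themselves spread, from -0.50 in Con 3 to 0.41 in Con 1. Among single members, the receptor kinase AXL had -0.18 (95% interval -0.33 to -0.03), the surface protein THY1 -0.22 (-0.39 to -0.05), the matrix protein lumican, LUM, 0.28 (0.01 to 0.56), the recombination factor RAD51C -0.18 (-0.37 to 0.01) and the small heat shock protein HSPB1 -0.16 (-0.34 to 0.02). None of these genes passed limma's adjustment in either fit.

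Of 25 listed NF-kB targets and secreted factors 20 were tested, and the others were too low. IL6, the cytokine interleukin 6, was at 0.0627 to 0.519 FPKM in the 6 vehicle libraries and 0.710 to 1.39 in the 6 QTP libraries, from 2 to 55 reads per library. Every QTP library lay above every vehicle library. CXCL3, a chemokine close to CXCL2, was at 0.269 to 0.936 FPKM with vehicle and 0.724 to 1.43 with QTP, from 10 to 58 reads, and its groups overlapped. Both genes were chosen here after their values were seen, and CXCL3 can share reads with its close relatives. The remaining untested members are not reported here, so these 2 do not stand for them.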
